A study of Mus musculus with 2 samples.

Results

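The 10 genes described here are Wnt feedback inhibitors, R-spondins and their receptors, and 1 Wnt-induced transcription factor, followed cell class by cell class in mouse pancreatic tumours. They were Axin2, Nkd1, Rnf43, Znrf3 and Apcdd1 (feedback inhibitors), Rspo1 and Rspo3 (R-spondin ligands), Lgr4 and Lgr5 (R-spondin receptors) and Sp5 (transcription factor), and all 10 were found by symbol among the 32285 genes of both count matrices. The study asked what changes across the tumour microenvironment when myeloid cells can no longer secrete Wnt. Tumours of KPC pancreatic cancer cells, implanted into the pancreas, were taken at day 21 from Porcnfl/fl littermates, labelled wild type, and from Csf1r-Cre;Porcnfl/fl mice, labelled a macrophage-specific knockout of Porcn. Porcn encodes the acyltransferase that Wnt proteins need for secretion. Both groups carry the floxed Porcn allele, the Cre is driven by the Csf1r promoter, and the implanted tumour cells do not come from the host. Age, sex and strain are not given in the sources used here. Each group was 1 library, for which the tumours of 5 mice were pooled, so every difference below lies between 2 libraries, the spread between mice is unknown and no test between genotypes was made.

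Wnt ligands stabilise β-catenin, which acts with TCF and LEF factors on target genes, and several of those targets shut the pathway down again. Axin2 is part of the complex that degrades β-catenin, Nkd1 binds Dishevelled, Apcdd1 is a membrane protein that inhibits Wnt signalling at the cell surface, and Rnf43 and Znrf3 are membrane E3 ubiquitin ligases that remove Frizzled receptors. R-spondins are secreted proteins that, bound to LGR receptors, clear Rnf43 and Znrf3 from the membrane and so sharpen the response to Wnt. Lgr5 is known as a marker of epithelial stem cells, Lgr4 is a broadly used receptor of the same family, and Sp5 is a zinc finger repressor induced by β-catenin.

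In these tumours the ligands, the receptors and the feedback genes had different homes. Rspo3 was mainly a fibroblast transcript, Rspo1 a mesothelial and fibroblast transcript, Nkd1 a fibroblast and mesothelial transcript, and Apcdd1, most of whose UMIs were in the abundant tumour-like cells, had its highest control level in pericyte/smooth muscle-like cells. Rnf43 and Znrf3 were detected in tumour-like cells and also in NK-like and T-like cells, where both R-spondins were at or near 0. Between the libraries, Rspo3 and Rspo1 were higher in knockout fibroblast-like cells, and Rnf43 was lower in knockout tumour-like cells. Axin2 went in opposite directions in different cell classes. Its T-like difference rested on 1 control UMI, and its fibroblast-like and tumour-like differences each turned direction under 1 alternative.

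Levels are counts of unique molecular identifiers (UMIs), added up for each class and library and divided by all UMIs of that class, times 1000000 (CPM). Intervals in parentheses are exact 95% intervals, Poisson for a level and conditional for a ratio, and they cover counting error only. The kit reads the 3′ end of transcripts, so levels of different genes are not compared with each other. The control library gave 11516 kept cells and the knockout library 10467, at medians of 12167.5 and 10109 UMIs per cell, and 46 cell barcodes occurred in both libraries. Clusters were named from marker genes into 14 classes, called tumour-like, fibroblast-like and so on, and all or most markers were highest in their own class except for the tumour-like cells. Of the 9 epithelial markers used for that class, 1 (Krt18) was highest there and 5 were seen in at least 10% of its cells. Krt18 stood at 1743 CPM and 1947 CPM in the control and knockout library, but Epcam, an epithelial adhesion gene, only at 6.71 CPM and 19.9 CPM. Tumour-like cells were 9516 of the control cells (82.6%) and 5835 of the knockout cells (55.7%), and T-like cells were 189 and 1625. In monocyte/macrophage-like cells Porcn itself had 8 UMIs in the control and 4 in the knockout library, too few to check the genotype, and 3′ reads may lie outside the deleted part.

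In kept cells of the control and the knockout library, Znrf3 had 2757 and 2645 UMIs, Lgr4 2439 and 1518, Apcdd1 1369 and 841, and Rnf43 1351 and 704. Axin2 had 625 and 499 UMIs, Nkd1 387 and 194, Rspo1 370 and 520, Rspo3 276 and 766, Lgr5 260 and 210, and Sp5 11 and 19. Sp5 was thus close to the limit of detection, with a UMI in 11 cells and 12 cells. All 10 are protein-coding genes in the GENCODE M21 annotation of GRCm38. Axin2 lies on chromosome 11 at 108920349 to 108950783, Rnf43 on chromosome 11 at 87662722 to 87735539, Nkd1 on chromosome 8 at 88521354 to 88594884, Rspo1 on chromosome 4 at 124986430 to 125009099, Lgr4 on chromosome 2 at 109917647 to 110014257, Sp5 on chromosome 2 at 70474923 to 70477729 and Apcdd1 on chromosome 18 at 62922231 to 62961179, all on the plus strand. Znrf3 lies on chromosome 11 at 5276324 to 5444847, Lgr5 on chromosome 10 at 115450311 to 115587780 and Rspo3 on chromosome 10 at 29452416 to 29535867, all on the minus strand. Axin2, Lgr5, Rspo1 and Rspo3 each overlap a gene on the opposite strand, and Rnf43 overlaps 1110028F11Rik on its own strand. How the counting treated such overlaps is not given in the sources used here. Those 5 overlapping genes (Gm11670, A930009A15Rik, Gm12930, Gm48159 and 1110028F11Rik) had between 0 and 16 UMIs per library.

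**Figure D1:**
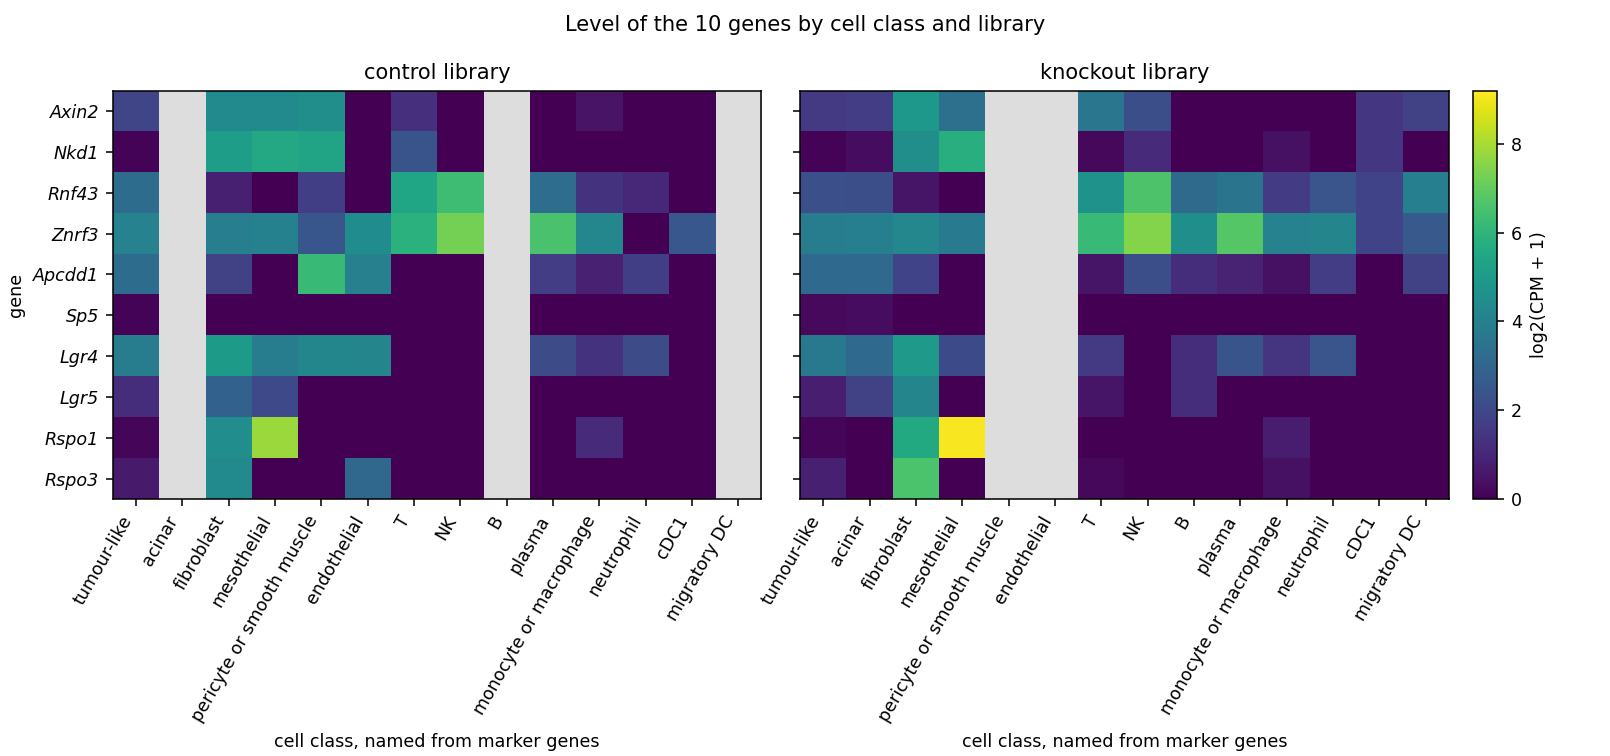
Level of each of the 10 genes as log2(CPM + 1) in each cell class, control library on the left and knockout library on the right, with grey for classes under 30 cells in that library. Rspo1 is brightest in mesothelial-like cells, Rspo3 in fibroblast-like cells and Znrf3 in NK-like cells, in both libraries.

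The ligands came mainly from mesenchyme. Rspo3 had 183 UMIs in control fibroblast-like cells, 19.5 CPM (16.8 to 22.6), and 679 in knockout fibroblast-like cells, 94.8 CPM (87.8 to 102). The knockout level was 4.85 times the control level (4.12 to 5.74), and the count intervals of the libraries lay far apart. Fibroblast-like cells (621 control and 731 knockout cells) held 66.3% of the control and 88.6% of the knockout Rspo3 UMIs. Tumour-like cells held 32.2% and 9.92% of them, beside 89.8% and 77% of all UMIs. Outside both classes, endothelial-like cells had 4 Rspo3 UMIs in the control and 9 in the knockout library, 7.62 CPM (2.08 to 19.5) and 39 CPM (17.8 to 74), from 53 and 25 cells. The 9 knockout UMIs lay in 3 cells. Krt8, Krt18 and Krt19 stood at 1126, 850 and 800 CPM in control endothelial-like cells and at 195, 273 and 334 CPM in knockout ones. The part of such tumour transcripts in this difference was not tested. Mesothelial-like, pericyte/smooth muscle-like, plasma-like, NK-like, neutrophil-like and cDC1-like cells had no Rspo3 UMI in either library. For the 240 knockout NK-like cells, the interval of a count of 0 reaches up to 4.44 CPM.

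More fibroblast-like cells carried the Rspo3 transcript, and those cells carried more of it. Of 621 control cells 93 had a UMI (15%), and of 731 knockout cells 276 (37.8%), at 1.97 and 2.46 UMIs per positive cell. After each cell was thinned to 1000 UMIs, which left out 5 cells in each library, the shares were 2.44% (1.37 to 3.98) and 10.2% (8.09 to 12.6), with Clopper-Pearson intervals. Before thinning, fibroblast-like cells had a median of 12450 UMIs (control) and 9093 UMIs (knockout). Neutrophil-like cells, which should lack R-spondins, showed 0 of 282 and 0 of 183 cells after the same thinning, which allows shares of up to 1.06% and 1.64%, at median depths of 1718 and 1874 UMIs. Without the richest cell of each library the ratio was 4.89 (4.14 to 5.82), so no single cell carried it.

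Rspo1 had its highest level in mesothelial-like cells, the lining cells of the abdominal cavity. There it had 144 UMIs in 47 control cells, 223 CPM (188 to 263), and 170 UMIs in 32 knockout cells, 545 CPM (467 to 634). A UMI was seen in 38 of the 47 and 30 of the 32 cells. Without the richest cell the levels were 202 CPM and 488 CPM, so the intervals above did not hinge on 1 cell, but both libraries fall short of the 100 cells set for a ratio. In fibroblast-like cells Rspo1 had 206 UMIs in the control and 337 in the knockout library, 22.0 CPM and 47.0 CPM, a ratio of 2.14 (1.79 to 2.56). Fibroblast-like cells held 55.7% and 64.8% of its UMIs in the control and knockout library, and mesothelial-like cells 38.9% and 32.7%. T-like, NK-like and neutrophil-like cells had no Rspo1 UMI in either library. Mesothelial markers in the fibroblast-like class, all 8 seen, were together at 274 CPM in the control and 176 CPM in the knockout library. In mesothelial-like cells they were at 4338 CPM and 5368 CPM. Their part in the Rspo1 difference of fibroblast-like cells was not tested. In turn, fibroblast markers, all 9 seen, were together at 13878 CPM and 15420 CPM in mesothelial-like cells, against 44810 CPM and 37278 CPM in fibroblast-like cells. The part of fibroblast transcripts in the mesothelial-like Rspo1 levels was not tested. The other R-spondins were scarce: Rspo2 had 8 and 5 UMIs in fibroblast-like cells and 6 and 5 in tumour-like cells, and Rspo4 had 1 UMI in the tumour-like and none in the fibroblast-like cells.

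Fibroblast-like cells formed 13 subclusters when clustered again, and the libraries filled them unevenly, so that 4 held at least 30 cells in both. All genes took part in that clustering, so levels across subclusters are descriptions. Rspo3 was among the 10 leading genes of a subcluster led by Chrm3, Rspo3 and Sned1 (13 control and 32 knockout cells), and of one led by Apod, Chrm3 and Abca8a (29 and 111 cells). In knockout cells of these subclusters Rspo3 reached 501 CPM (132 UMIs) and 267 CPM (251 UMIs). In the fewer control cells of the same subclusters it was also high, at 369 CPM (267 to 497, 43 UMIs) and 167 CPM (115 to 235, 33 UMIs). The largest control subclusters had little of it, with 3.94 CPM in 161 cells led by Slpi and Col24a1 and 4.71 CPM in 111 cells led by Apod and Igfbp5, and the knockout library held 19 and 2 cells of these.

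Within the 4 subclusters filled by both libraries, Rspo3 was higher in the knockout library in all 4, with 1 interval clear of 1. In the subcluster led by Gsn, Apoe and Cxcl12 it had 14 control UMIs, 47.4 CPM, and 38 knockout UMIs, 114 CPM, a ratio of 2.40 (1.27 to 4.79). In those led by Igfbp5 and Opcml, by Clec3b and Fbln7, and by Chrm3, Sned1 and Opcml, the ratios were 2.16 (0.989 to 5.60), 1.76 (0.869 to 3.71) and 1.32 (0.857 to 2.07). The Rspo3 ratio was smaller in sums that weight or leave out subclusters, which were drawn with all genes, Rspo3 among them. With 7 subclusters weighted alike in both libraries it was 1.72, and without subclusters of under 20 cells in 1 library it was 3.06 (2.48 to 3.81). Rspo1 was higher in the knockout library in 2 of the 4 and lower in 2, with 1 interval above 1. Its levels went from 30.2 to 61.8 CPM in the cells led by Chrm3, Sned1 and Opcml (2.04, 1.01 to 4.56) and from 102 to 77.8 CPM in those led by Gsn, Apoe and Cxcl12. Without subclusters of under 20 cells in 1 library the Rspo1 ratio was 1.27 (1.02 to 1.58).

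**Figure D2:**
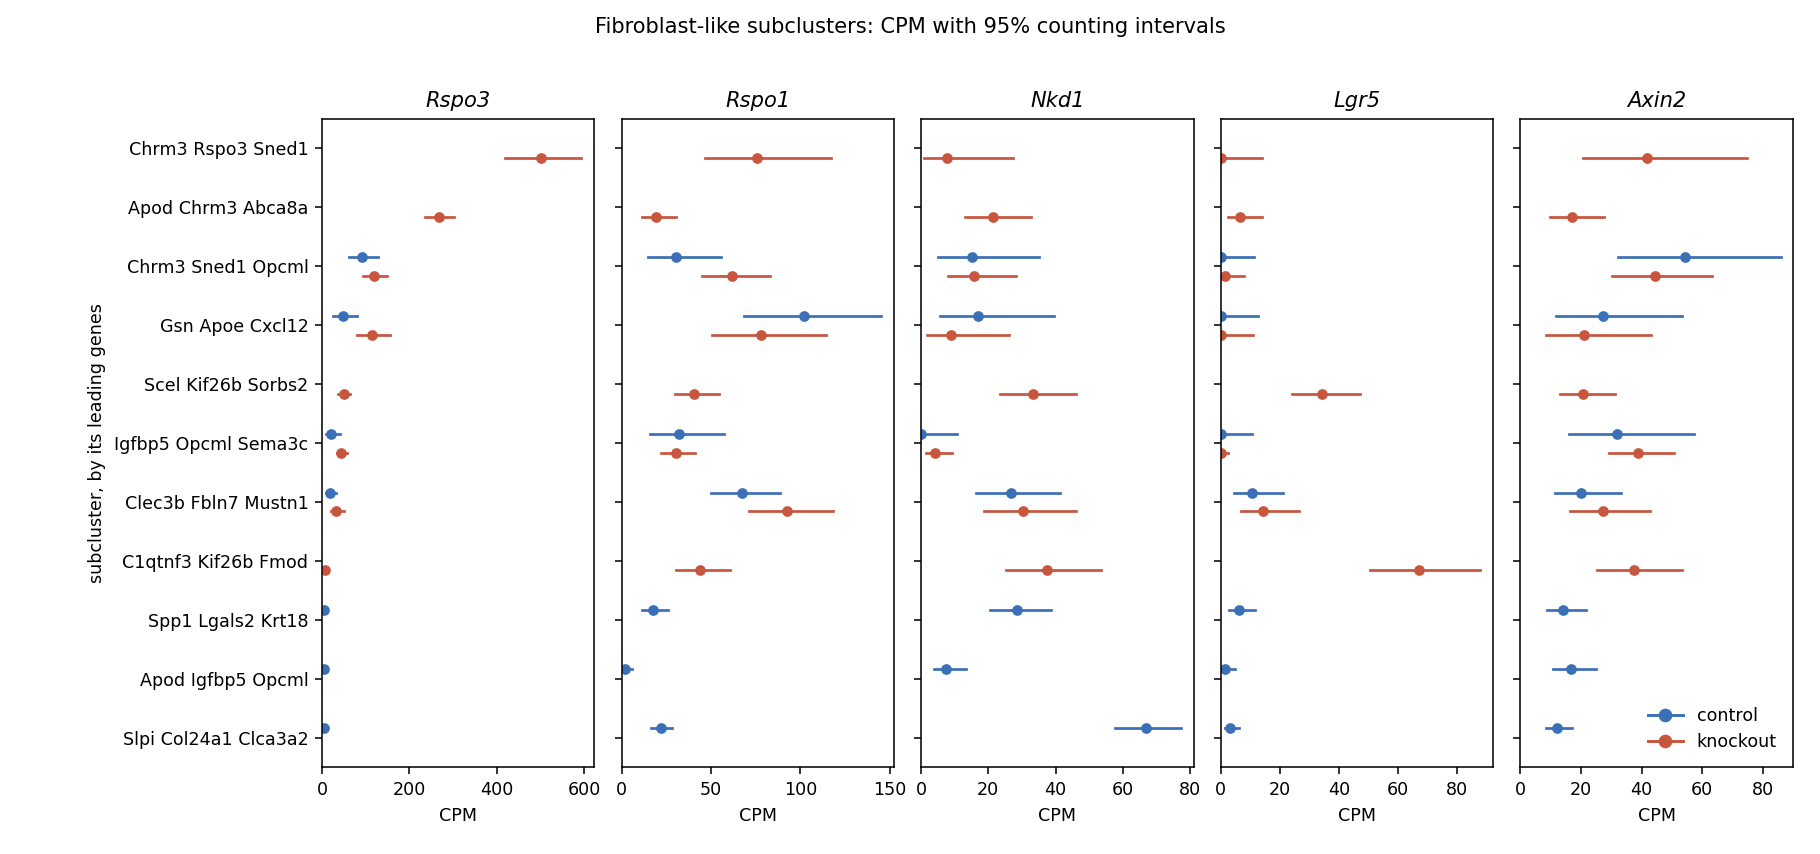
CPM of R-spondins, receptor and feedback genes in each fibroblast-like subcluster, named by its leading genes, with 95% counting intervals, for subclusters with at least 30 cells in the library plotted. Rspo3 reaches 501 CPM in the knockout cells led by Chrm3, Rspo3 and Sned1 and stays below 5 CPM in the 2 largest control subclusters.

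The receptors were split between the tumour and its stroma. Lgr4 had 2098 UMIs in control and 1224 in knockout tumour-like cells, 13.8 CPM and 12.3 CPM, a ratio of 0.888 (0.827 to 0.954). In fibroblast-like cells it had 292 and 219 UMIs, 31.2 CPM and 30.6 CPM, a ratio of 0.981 (0.819 to 1.17), so its level there differed by less than counting error. Lymphoid and myeloid classes had little Lgr4, with 0 control UMIs and 13 knockout UMIs in T-like cells (1.92 CPM in the knockout library) and 4 and 5 UMIs in monocyte/macrophage-like cells. In acinar-like cells it had 13 control UMIs, all in 2 of 29 cells, and 32 knockout UMIs in 22 of 290 cells, 36.2 CPM and 7.79 CPM.

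Lgr5, by contrast, was higher in knockout fibroblast-like cells and lower in knockout tumour-like cells. In fibroblast-like cells it had 58 UMIs in the control and 123 in the knockout library, 6.19 CPM and 17.2 CPM, a ratio of 2.77 (2.01 to 3.86). The share of cells with a UMI was nearly equal, 33 of 621 (5.31%) and 40 of 731 (5.47%), while UMIs per positive cell were 1.76 and 3.08. A single control cell held 12 of the 58 UMIs and a single knockout cell 26 of the 123, and without the richest cell of each library the ratio was 2.76 (1.92 to 4.01). The subcluster led by C1qtnf3, Kif26b and Fmod, myofibroblast-like by its markers, held 26 of the 58 control UMIs in 21 cells and 54 of the 123 knockout UMIs in 66 cells. With subclusters weighted alike in both libraries the ratio was 0.94. Without subclusters of under 20 cells in 1 library, which leaves the mix of the others uneven, it was 1.16 (0.791 to 1.72). The part of the mix of subclusters in the class-wide difference was not tested. In tumour-like cells Lgr5 had 199 control and 72 knockout UMIs, 1.31 CPM and 0.723 CPM, a ratio of 0.551 (0.415 to 0.725). Immune classes had from 0 to 3 Lgr5 UMIs per library. Lgr6, the third receptor of the family, was seen mainly in tumour-like cells, at 8.86 CPM and 9.33 CPM in the control and knockout library.

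Among the feedback genes, Rnf43 differed most in tumour-like cells. It had 1286 UMIs in control tumour-like cells, 8.48 CPM (8.03 to 8.96), and 371 in knockout ones, 3.73 CPM (3.36 to 4.13), a ratio of 0.439 (0.390 to 0.493). Cells with a UMI were 10.4% and 4.04%. The depth of tumour-like cells, at medians of 13302 and 14918 UMIs, was higher in the knockout library. Znrf3, which encodes the paralogous ligase, had 2397 and 1346 UMIs, 15.8 CPM and 13.5 CPM, a ratio of 0.855 (0.799 to 0.914). Axin2 had 417 and 195 UMIs, 2.75 CPM and 1.96 CPM, a ratio of 0.712 (0.598 to 0.846). Apcdd1 had 1297 and 775 UMIs, 8.56 CPM and 7.79 CPM, a ratio of 0.910 (0.831 to 0.995). Nkd1 was nearly absent from tumour-like cells, with 11 and 6 UMIs.

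Of the 9 genes with at least 20 UMIs in tumour-like cells, 1 (Sp5) was more than 1.5 times higher in the knockout library and 2 (Rnf43 and Lgr5) were more than 1.5 times lower. Among all 17511 genes tested there, 9.61% were higher and 7.13% lower by that measure. The 1 of 9 higher is close to that background, and the 2 of 9 lower are above it. The median log2 ratio of the 9 genes was -0.23, beside -0.06 for all genes. In 6 of the 9 the interval lay below 1, for ratios as near to 1 as 0.910. The share of all genes with such an interval is not given here, so this count has no background beside it. Sp5 rested on 10 and 18 UMIs, 0.066 CPM and 0.181 CPM, a ratio of 2.74 (1.20 to 6.65). Without the cell richest in it the ratio was 2.20 (0.87 to 5.83). Rspo3 in tumour-like cells had 89 and 76 UMIs, a ratio of 1.30 (0.945 to 1.79), and Rspo1 had 17 and 8, a ratio of 0.717 (0.268 to 1.75). The class held 94.7% of the control and 92.2% of the knockout Apcdd1 UMIs, beside 89.8% and 77% of all UMIs. Fibroblast markers, all 9 seen, were together at 99.3 CPM and 36.3 CPM in tumour-like cells, and without the tenth of cells richest in markers of other classes the Rnf43 ratio was 0.402.

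**Figure D3:**
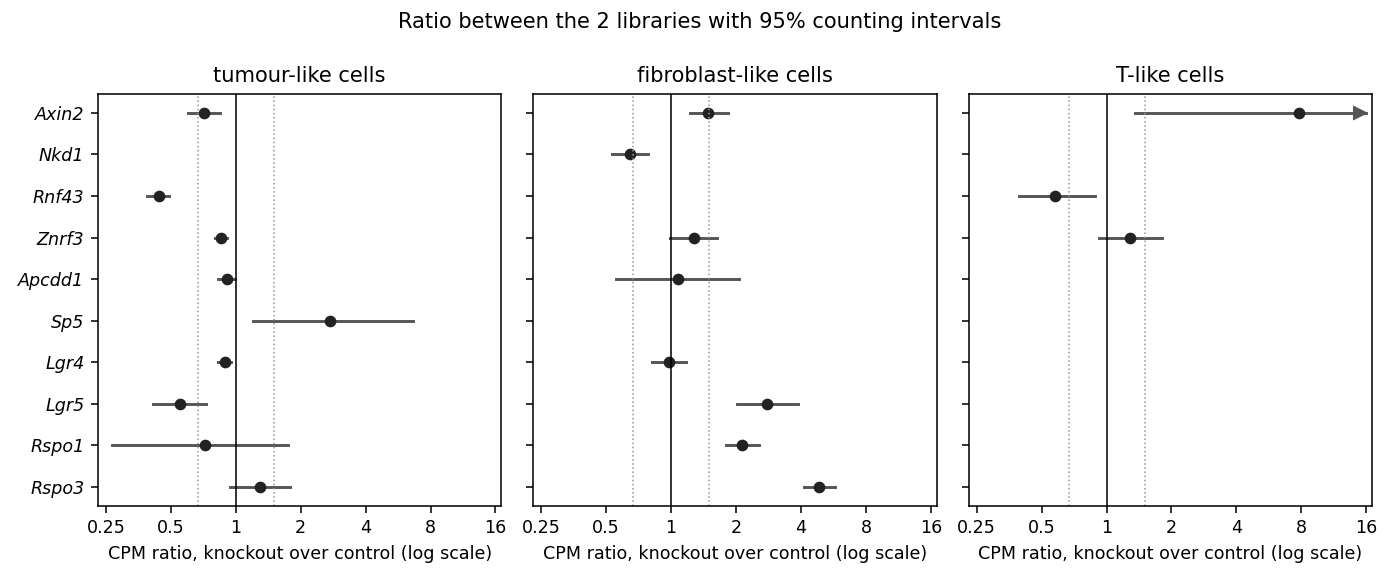
Ratio of the knockout over the control level with 95% counting intervals on a log scale, for each of the 10 genes with at least 20 UMIs in the class, with dotted lines at 1.5-fold and an arrow where an interval runs past the axis. Rnf43 and Lgr5 lie below 1 in tumour-like cells, while Rspo3, Lgr5, Rspo1 and Axin2 lie above 1 in fibroblast-like cells.

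The tumour-like cells were clustered again into 18 subclusters, 15 of them with at least 30 cells in both libraries. Rnf43 had at least 20 UMIs in 13 of the 15 and was lower in the knockout library in 12, with 11 intervals below 1. In the largest one, led by Tmeff2 and Cxcl12, it had 285 UMIs in 1894 control cells and 43 in 589 knockout cells, 11.6 CPM and 5.60 CPM, a ratio of 0.483 (0.342 to 0.667). In cells led by Muc5ac the levels were 9.93 CPM and 3.73 CPM, and in cells led by Lgals4, with intestinal markers, 15.2 CPM and 6.48 CPM. Cycling cells, led by Ube2c, Pclaf and Top2a, had 88 and 12 UMIs, a ratio of 0.196 (0.0977 to 0.36). Cells led by Hilpda and Ifit3 had 58 and 13 UMIs, a ratio of 0.115 (0.0577 to 0.212), and cells led by Inhba had 22 UMIs in the control and 0 in the knockout library. The interval reached 1 in the cells led by Cxcl10 and Cxcl9, with 0.679 (0.409 to 1.12). The lower level of Rnf43 was thus spread over most of the tumour-like subclusters.

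For the other members fewer of these intervals lay below 1, and a difference from Rnf43 in this was not tested. Znrf3 was higher in 6 and lower in 8 of 14, with 1 interval above and 3 below 1. Lgr4 was higher in 8 and lower in 6 of 14, with 2 intervals above and 4 below 1. Its level went from 30.9 to 49.3 CPM in the Lgals4-led cells (1.59, 1.31 to 1.94) and from 13.1 to 8.69 CPM in the Muc5ac-led cells (0.661, 0.54 to 0.805). Apcdd1 was lower in 10 of 13, with 1 interval below 1. Axin2 was lower in 6 of 8 and Lgr5 in 4 of 6, with no interval below 1 for either. Rspo3 in tumour-like cells was richest in a subcluster led by Crabp2, Serpinf1 and Col3a1. There it had 36 UMIs in 423 control cells and 22 in 69 knockout cells, 3.98 CPM and 24.0 CPM, a ratio of 6.04. All 9 fibroblast markers were seen in these cells too, together at 730 CPM in the control and 191 CPM in the knockout library, against 44810 CPM and 37278 CPM in fibroblast-like cells. The part of fibroblast transcripts in this Rspo3 difference was not tested. With the 15 subclusters weighted alike in both libraries, the class ratios were 0.792 for Rnf43, 0.862 for Lgr5, 1.17 for Axin2, 1 for Znrf3 and 3.49 for Rspo3. Rnf43 and Lgr5 were then within 1.5-fold. Equal weights count a small Epcam-high subcluster (41 control and 47 knockout cells), described next, as much as the largest one. It had the highest levels of the 15 for Rnf43 (49.5 and 81.6 CPM), Lgr5 (6.51 and 12.1 CPM) and Axin2 (10.4 and 30.2 CPM). A weighting without it is not given here.

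Of the 13 subclusters with at least 20 Rnf43 UMIs, the 1 in which Rnf43 was higher in the knockout library was small and Epcam-high. It was led by Tff2, Epcam, Cldn3 and Wfdc18, and had 41 control cells (0.431% of the tumour-like cells) and 47 knockout cells (0.805%). The naming rule detected 3 of 7 gastric mucous markers in it. Of these 7, Tff2 stood at 2085 CPM and 6735 CPM, and Muc5ac at 128 CPM and 7.56 CPM. Epcam stood at 1085 CPM and 1444 CPM. Hmga2 stood at 106 CPM and 88.4 CPM, beside 440 CPM and 495 CPM in the whole tumour-like class. Whether the cells of this subcluster come from the implanted cells was not tested. Rnf43 had 38 UMIs there in the control and 108 in the knockout library, 49.5 CPM and 81.6 CPM, a ratio of 1.65 (1.13 to 2.45). It was seen in 16 of 41 and 23 of 47 cells. Axin2 had 8 and 40 UMIs, 10.4 CPM and 30.2 CPM, a ratio of 2.90 (1.34 to 7.17). Znrf3 stood at 86.0 CPM and 97.5 CPM and Lgr4 at 69.1 CPM and 65.8 CPM. These few cells held 2.95% of the control and 29.1% of the knockout Rnf43 UMIs of the tumour-like class. For Sp5 the shares were 10% and 50%, for Lgr5 2.51% and 22.2% and for Axin2 1.92% and 20.5%. Without the subcluster, the tumour-like ratio was 0.324 (0.282 to 0.370) for Rnf43, 0.582 for Axin2 and 0.443 for Lgr5, and Sp5 fell under 20 UMIs.

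One knockout cell of that subcluster, chosen after its values were seen, held 60 of the 108 Rnf43 UMIs. It had 153927 UMIs over 11047 genes and a doublet score of 0.137, and was not called a doublet. Beside Rnf43 it held 32 UMIs of Znrf3, 16 of Axin2, 14 of Lgr5, 8 of Lgr4, 5 of Sp5, 1 of Nkd1 and none of Apcdd1 or the R-spondins, so 7 of the 10 genes were seen in it. It also held 2672 UMIs of Gkn3, 1265 of Pgc and 15 of Olfm4, genes of stomach and gut epithelium, and 238 of Epcam. Without the richest cell of each library, Rnf43 in the subcluster was at 43.0 CPM and 36.3 CPM, Axin2 at 7.82 CPM and 18.1 CPM, and Lgr5 at 3.91 CPM and 1.51 CPM. The higher Rnf43 level in the knockout cells of the subcluster therefore rested on that cell. Without the richest cell of each library the ratio over all tumour-like cells was 0.371 (0.327 to 0.421).

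**Figure D4:**
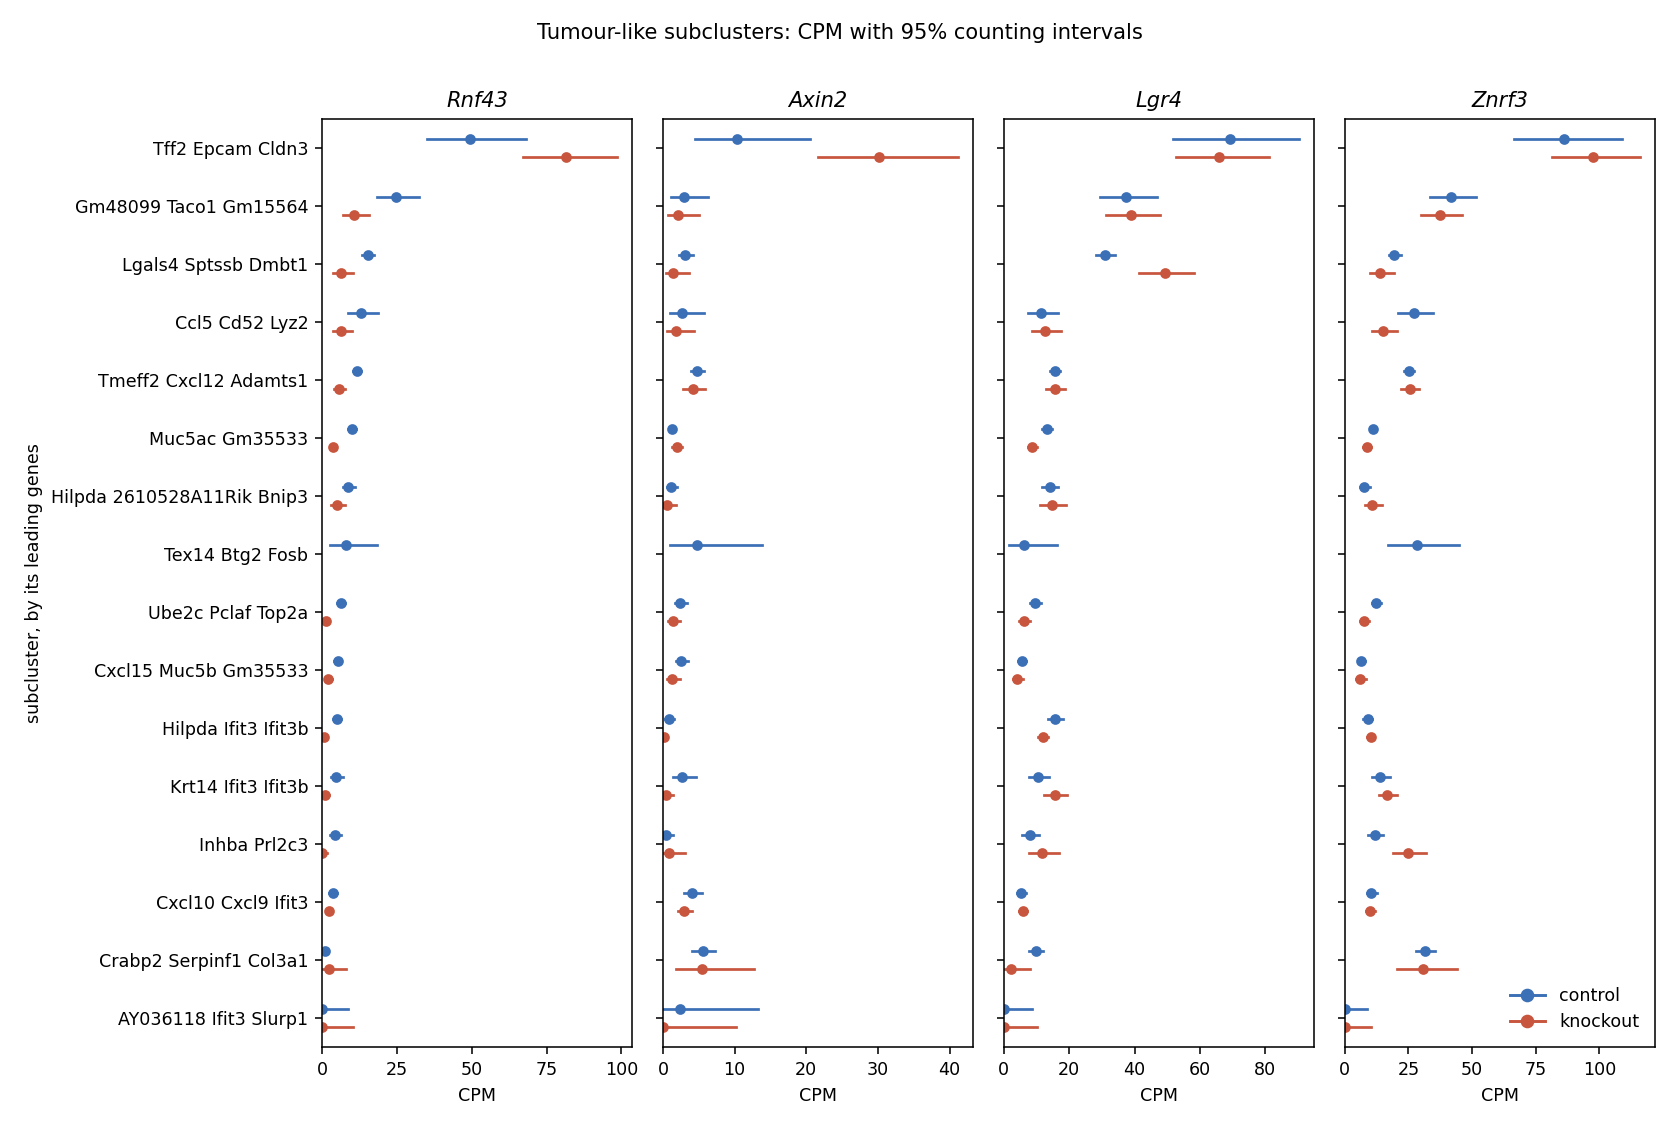
CPM of Rnf43, Axin2, Lgr4 and Znrf3 in each tumour-like subcluster with 95% counting intervals, control and knockout library side by side. Rnf43 is lower in the knockout library in 12 of the 13 subclusters with at least 20 UMIs, and the cells led by Tff2 and Epcam carry the highest levels.

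In fibroblast-like cells the feedback genes did not move together. Axin2 had 182 control and 208 knockout UMIs, 19.4 CPM (16.7 to 22.5) and 29.0 CPM (25.2 to 33.3), a ratio of 1.49 (1.22 to 1.83). Nkd1 had 325 and 161 UMIs, 34.7 CPM (31.0 to 38.7) and 22.5 CPM (19.1 to 26.2), a ratio of 0.648 (0.533 to 0.785). Znrf3 had 135 and 131 UMIs, 14.4 CPM and 18.3 CPM, a ratio of 1.27 (0.990 to 1.63). Apcdd1 had 23 and 19 UMIs, a ratio of 1.08 (0.556 to 2.07), and Rnf43 had 7 and 3. Sp5 had none in either library, where the floor of 3 counts stands at 0.320 CPM and 0.419 CPM. Of the 8 genes with at least 20 UMIs, 3 (Rspo3, Lgr5 and Rspo1) were more than 1.5 times higher in the knockout library and 1 (Nkd1) was more than 1.5 times lower. The background over all 13341 genes was 20.2% higher and 12.6% lower, and the median log2 ratio was 0.46 for the 8 genes and 0.11 for all genes. The 1 lower gene of 8 is close to the background share. Markers of other cells were lower in the knockout fibroblast-like cells, with all 9 epithelial markers together at 625 CPM in the control and 238 CPM in the knockout library (Cldn7 at 0 in the latter), and their part in these differences was not tested. Without the tenth of cells richest in markers of other classes, the Rspo3 ratio was 6.07 and the Nkd1 ratio 0.604.

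Nkd1 was uneven among fibroblasts. The Slpi-led subcluster held 187 of the 325 control UMIs (57.5%), at 66.9 CPM, and the knockout library had 19 cells of it. In the Clec3b-led and Fbln7-led cells, filled by both libraries, Nkd1 stood at 26.8 CPM and 30.2 CPM, a ratio of 1.13 (0.581 to 2.19). When clusters were drawn more coarsely, the Nkd1 ratio of the class was 1.23. The class then held 402 control and 710 knockout cells, in place of 621 and 731. Axin2 was within counting error in each of the 3 subclusters with at least 20 UMIs, with ratios of 1.22, 0.819 and 1.36, and with subclusters weighted alike its ratio was 0.859. Nkd1 was also present in mesothelial-like cells, at 46.5 CPM and 54.5 CPM from 30 and 17 UMIs, and in control pericyte/smooth muscle-like cells at 40.1 CPM from 18 UMIs. Nkd2, the paralogue of Nkd1, went the other way from it in fibroblast-like cells, from 18 CPM to 32.4 CPM, a ratio of 1.80 (1.47 to 2.20). Apcdd1 was highest in control pericyte/smooth muscle-like cells, the mural cells of vessels, at 73.5 CPM (50.6 to 103) from 33 UMIs in 17 of 53 cells. The knockout library held 9 such cells.

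In single fibroblast-like cells, Rspo3 and the feedback genes were compared pair by pair. Of the 93 control cells with an Rspo3 UMI, 20.4% also had Axin2, 20.4% Nkd1 and 11.8% Znrf3, beside 23.2%, 27.1% and 16.3% of all control fibroblast-like cells. Of the 276 knockout cells with an Rspo3 UMI, 19.6% had Axin2, 11.2% Nkd1 and 14.1% Znrf3, beside 21.1%, 16.3% and 14%. These shares were thus near or below those of all cells. For cells with an Rspo1 UMI the Axin2 and Nkd1 shares were 18.5% and 30.6% in the control library, and 21.9% and 19.1% among knockout cells. Lgr5-positive cells more often carried Axin2 and Nkd1: in the control library 42.4% of 33 cells had Axin2 and 66.7% had Nkd1, beside 23.2% and 27.1% of all fibroblast-like cells. In the knockout library these shares were 32.5% and 30.0% of 40 cells, beside 21.1% and 16.3%. Depth was not matched between these cells, so the shares are descriptions.

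The T-like cells carried 3 of the genes, and 2 of them differed by more than 1.5-fold. Axin2 had 1 UMI in 189 control cells and 76 in 1625 knockout cells, 1.43 CPM and 11.2 CPM (8.85 to 14.1), a ratio of 7.83 whose interval ran from 1.36 to 313. Rnf43 had 30 and 169 UMIs, 43 CPM and 25 CPM, a ratio of 0.580 (0.392 to 0.887). Znrf3 had 40 and 497 UMIs, 57.4 CPM and 73.4 CPM, a ratio of 1.28 (0.927 to 1.81). So 1 gene was higher and 1 lower of 3 tested, against a background of 14.8% higher and 12.8% lower over 11296 genes. The median log2 ratio was 0.32 for the 3 genes and -0.09 for all genes. Nkd1, Lgr4, Lgr5, Rspo3 and Apcdd1 had from 0 to 13 UMIs per library in T-like cells, and Rspo1 and Sp5 had none. T-like cells had a median of 2834 UMIs (control) and 3342 UMIs (knockout). NK markers were together at 1114 CPM in control T-like cells, with 6 of 8 seen and Ncr1 and Klra8 at 0, and at 495 CPM in knockout ones, with all 8 seen. NK-like cells had 7676 CPM and 8080 CPM of them, and their part in the Rnf43 difference was not tested.

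T-like subclusters were filled almost wholly by knockout cells, with 10 of 12 holding at least 30 knockout cells and 2 at least 30 in both libraries, so the genes are described across knockout subclusters. Axin2 was highest in the cells led by S1pr1 and Klf2, genes of circulating and naive-type T cells, with 22 UMIs in 270 cells, 30.5 CPM (19.1 to 46.2). It followed in cells led by Dgki, Ntrk3 and Tnfsf8 at 20.8 CPM (10.7 to 36.3) and in cells led by Dapl1 and Lef1 at 15.4 CPM (7.04 to 29.2). In the Foxp3-bearing regulatory-like cells it stood at 7.09 CPM (2.85 to 14.6). The intervals of the first 3 overlap each other. The 2 ligases did not follow that order. Znrf3 reached 209 CPM (173 to 249) from 122 UMIs in the cells led by Dapl1 and Lef1, where Rnf43 had 4 UMIs, 6.84 CPM. Rnf43 was highest in the S1pr1-led and Klf2-led cells at 49.9 CPM (34.9 to 69.1), and Znrf3 stood at 97.0 CPM there. In the cells led by Dgki, Ntrk3 and Tnfsf8, Znrf3 had 2 UMIs, 3.46 CPM, its lowest level among these subclusters, and Rnf43 had 15, 26 CPM.

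Control cells were nearly missing from those subclusters, with 10 in the S1pr1-led and 2 in the Dapl1-led one. Without these 2 subclusters Axin2 had 0 control and 45 knockout UMIs (8.24 CPM), the Rnf43 ratio was 0.565 (0.373 to 0.883) and the Znrf3 ratio was 0.935 (0.671 to 1.33). Tcf7 and Lef1, the TCF factors of T cells, went from 63.1 to 138 CPM and from 71.7 to 189 CPM between the control and knockout T-like class, ratios of 2.18 (1.61 to 3.03) and 2.64 (1.99 to 3.57). They reached 568 CPM and 1213 CPM in the knockout cells led by Dapl1 and Lef1. The part of the mix of subclusters in the Axin2 difference was not tested, since the control library had too few of these cells.

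**Figure D5:**
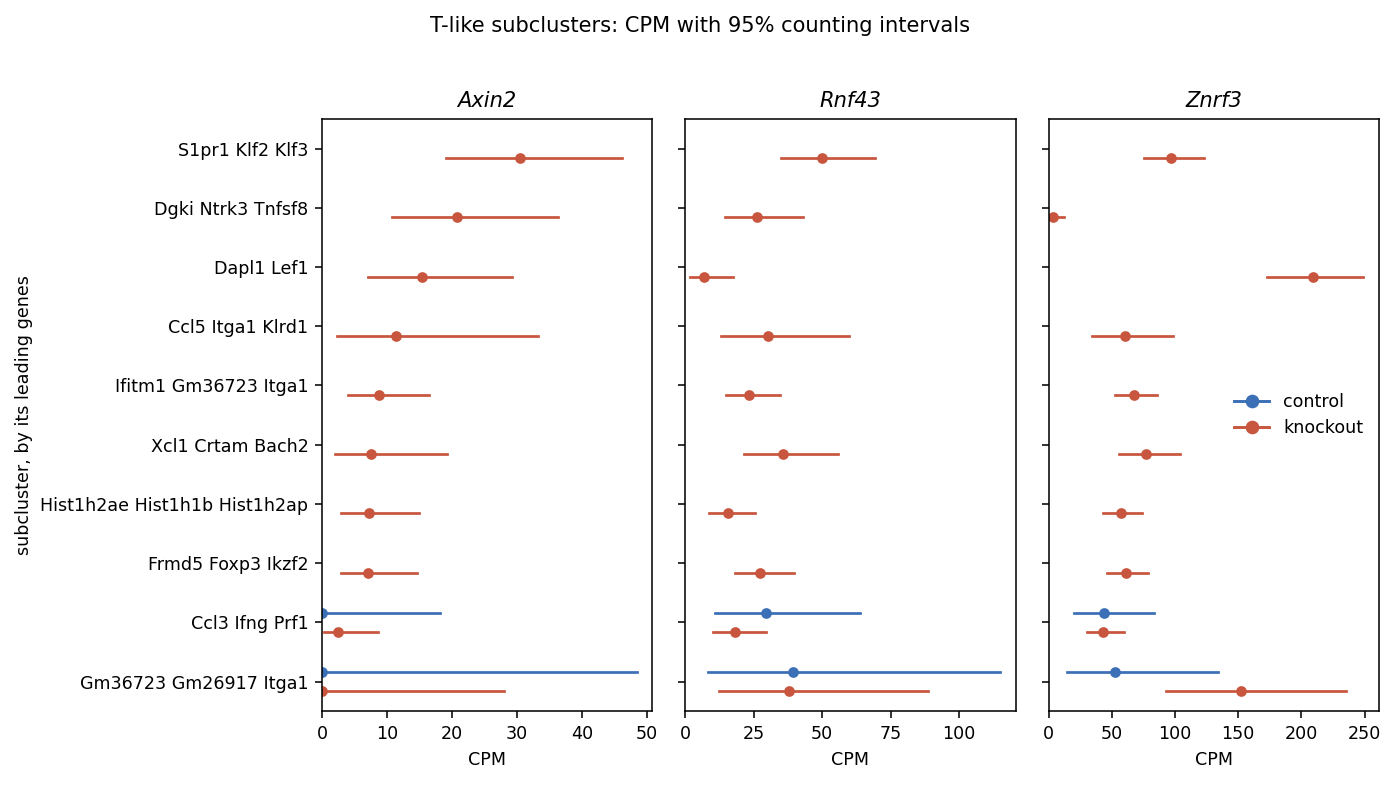
CPM of Axin2, Rnf43 and Znrf3 in each T-like subcluster, named by leading genes, with 95% counting intervals, for subclusters with at least 30 cells in the library plotted. Axin2 is highest in the S1pr1-led knockout cells at 30.5 CPM and Znrf3 in the Dapl1-led knockout cells at 209 CPM.

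The ligases were high in other lymphoid classes too. In NK-like cells Znrf3 had 21 UMIs in 39 control cells, 154 CPM (95.3 to 235), and 147 in 240 knockout cells, 177 CPM (149 to 208). Rnf43 there had 11 and 81 UMIs, 80.6 CPM (40.3 to 144) and 97.5 CPM (77.4 to 121), with overlapping intervals. Axin2 had 3 UMIs in the knockout NK-like cells. In plasma-like cells Znrf3 had 87 UMIs in 66 control cells and 356 in 212 knockout cells, 94.1 CPM and 108 CPM, but 1 knockout cell held 87 of the 356, and without the richest cell of each library the levels were 86.6 CPM and 81.4 CPM. Monocyte/macrophage-like cells, the class in which the Cre was meant to act, had 47 Znrf3 UMIs in each library, 18.2 CPM and 16 CPM, a ratio of 0.877 (0.573 to 1.34). Of the 10 genes it alone had 20 UMIs in that class, and it was within 1.5-fold, beside 8.09% of 10430 genes higher and 11.1% lower. In neutrophil-like cells none of the 10 reached 20 UMIs.

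Sp5 and Axin2 are known as direct targets of TCF and LEF factors, and the start of each gene is shown for that reason. RefSeq promoter windows on GRCm38.p6, from 250 bases before the start to 50 after it, were found for 6 of the 10 genes, with 7 windows. They were searched on both strands for CTTTGA and CTTTGT, the core letters that TCF and LEF factors bind. The Sp5 window, chr2:70474673-70474972, held 5 matches, 4 on the strand of the gene and 1 on the opposite strand, and the other 6 windows (Axin2, Nkd1, Lgr4, Rspo1 and both of Rnf43) held none. The matches in Sp5 begin 221, 212, 204 and 104 bases before the start and 41 bases after it. Of all 32851 windows of that length, 10249 (31.2%) held at least 1 match and 12 (0.0365%) held 5 or more. The 250 bases before each start are printed 5′ to 3′ on the plus strand, chr2:70474673-70474922 for Sp5 and chr11:108920099-108920348 for Axin2, with motif matches in capitals.
Sp5: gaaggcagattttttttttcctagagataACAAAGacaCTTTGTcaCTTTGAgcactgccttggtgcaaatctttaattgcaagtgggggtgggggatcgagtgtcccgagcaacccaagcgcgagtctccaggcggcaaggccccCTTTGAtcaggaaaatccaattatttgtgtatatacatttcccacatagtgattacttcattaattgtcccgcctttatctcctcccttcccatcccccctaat
Axin2: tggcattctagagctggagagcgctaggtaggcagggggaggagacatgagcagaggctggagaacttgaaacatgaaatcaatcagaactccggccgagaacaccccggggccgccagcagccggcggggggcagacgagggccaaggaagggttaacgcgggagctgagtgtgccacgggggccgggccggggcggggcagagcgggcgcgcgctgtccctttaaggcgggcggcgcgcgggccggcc
Of the 5 Sp5 matches, 4 stand in the printed run, and the Axin2 run, over the same distance from its start, holds none. A match is a string of letters and not a bound site.

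Other genes of the pathway give the setting. Of 41 further Wnt pathway genes, 34 had at least 20 UMIs in tumour-like cells, of which 3 were more than 1.5 times higher and 4 lower in the knockout library, with a median log2 ratio of -0.15, beside 9.61% and 7.13% of all genes. In fibroblast-like cells 9 of 31 were higher and 5 lower, with a median of 0.27, beside 20.2% and 12.6% of all genes. In T-like cells 5 of 25 were higher and 7 lower, with a median of -0.13, beside 14.8% and 12.8%. In monocyte/macrophage-like cells 1 of 25 was higher and 5 lower, with a median of -0.15, beside 8.09% and 11.1%. Among further feedback genes in tumour-like cells, Notum, a secreted enzyme that inactivates Wnt, went from 148 to 22 UMIs, a ratio of 0.226 (0.138 to 0.356), and Tnfrsf19 from 46 to 100, a ratio of 3.31 (2.31 to 4.80). The Wnt target Ephb3 had a tumour-like ratio of 0.385 (0.300 to 0.490) and a fibroblast-like ratio of 2.24 (1.87 to 2.70), and Tcf7 and Tiam1 tumour-like ratios of 0.631 and 0.65. In fibroblast-like cells Tcf7l2, a TCF factor, went from 126 to 244 CPM, while the Wnt targets Ccnd1 and Cd44 had ratios of 0.406 and 0.401. Also higher there were Ephb2 (2.45), Tiam1 (1.68), Btrc (1.58), the Wnt co-receptor Lrp6 (1.58), Tcf7l1 (1.53) and Dvl3 (1.51), and lower were Bambi (0.502) and Cdh2 (0.269). In T-like cells Bcl9l and Cd44 had ratios of 0.618 and 0.588. In monocyte/macrophage-like cells Ctnnb1, which encodes β-catenin, went from 168 to 102 CPM, a ratio of 0.606 (0.522 to 0.704), Lrp6 from 57.8 to 37.1 CPM and Sox4 from 53.1 to 16 CPM. Keratins also differed in this class, Krt8 from 185 to 76.2 CPM, Krt18 from 136 to 80.9 CPM and Krt19 from 181 to 90.4 CPM. The part of tumour transcripts in these differences was not tested.

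The genes most like each member across cell classes were found by Pearson correlation of log2(CPM + 1) over 23 class and library sums with at least 30 cells, from 14 classes and among 14614 genes. The sums of a library share its depth, and each class appears up to once per library, so these values describe only. Rspo1 was most like Ddo, Wt1os and Wt1, each with r = 0.97, and Wt1 is one of the mesothelial markers used for naming. Nkd1 was most like Sulf1 and AI838599 (0.97 and 0.96), and Rspo3 like Rnf165, Ptx3 and Slc10a6 (0.96, 0.94 and 0.92). Lgr4 was most like Zfp13, Kdelr3 and Pcolce (0.92, 0.92 and 0.91), and Lgr5 like En1, Adh1 and Snhg11 (0.91, 0.89 and 0.88). Rnf43 was most like Gm45716, Lef1 and Pim2 (0.92, 0.9 and 0.88), Apcdd1 like Hrct1 and Rbpms2 (0.91 and 0.86), and Axin2 like Dzip1, Cd248 and Npas2 (0.89, 0.87 and 0.87). For Znrf3 the highest value was lower, r = 0.79 with Sec24a, Gm9856 and Kcnk5. Sp5 had too few UMIs for this.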

How the data were processed

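The authors deposited raw counts of UMIs per gene and cell barcode for 2 libraries, made with a 10x Genomics 3′ kit per the labels' protocols. The file headers name Cell Ranger 8.0.0, and the submitters' processing notes name Cell Ranger 3.1.3 and mm10. The control matrix held 173934025 UMIs over 13766 barcodes and the knockout matrix 137527647 over 12251.

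Cells needed 500 or more genes and no more than 15% mitochondrial UMIs, and Scrublet doublets were removed (148 and 341), in scanpy 1.11.5. Leiden clustering (resolution 1, leidenalg 0.10.2) used no correction between libraries. Clusters were named from fixed markers by a scoring rule set after seeing clusters. Tumour-like, fibroblast-like and T-like cells were clustered again, and subclusters are called by leading genes. UMIs were summed per class and library. With 1 library per group no p-value is given. Ratios were taken in the 5 classes that held 100 or more cells in both libraries, for genes with at least 20 UMIs, and a floor for 0 was 3 counts. Median log2 ratios use 1 UMI added to each sum. The ratio step was tested on simulated data.

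The 10 genes, the pathway lists and the rule for naming genes (all 10 genes, the 3 genes most like each, and list genes past 1.5-fold with at least 100 UMIs) were chosen with earlier results of these data known. Some genes that the rule or the leading genes would name are not reported here. Alternatives covered filters, doublets, resolution, weighting of subclusters, single cells and thinning. Of the feature identifiers, 32158 matched GENCODE M21.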

Additional observations from a re-analysis of the deposited data

Results flagged for a closer look

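Axin2 and Lgr5 stood apart because their levels differed in opposite directions in different cell classes of the same pair of libraries, and none of these differences between classes was tested. Axin2 was higher in knockout T-like cells, at 7.83 times the control level on 1 control UMI, and lower in knockout tumour-like cells, at 0.712 times. It was also higher in knockout fibroblast-like cells, at 1.49 times. Lgr5 was 2.77 times the control level in knockout fibroblast-like cells and 0.551 times in tumour-like cells. The Axin2 and Lgr5 values of fibroblast-like cells were 0.859 and 0.94 with subclusters weighted alike, and the Axin2 and Lgr5 values of tumour-like cells were then 1.17 and 0.862. At those weights Lgr5 was below 1 in both classes, and Axin2 was below 1 in fibroblast-like and above 1 in tumour-like cells, the reverse of the class sums. The tumour-like weights include the Epcam-high subcluster of 41 control and 47 knockout cells. Axin2 stood there at 10.4 CPM and 30.2 CPM, with 16 of the 40 knockout UMIs in 1 cell. In sums without that subcluster the tumour-like Axin2 ratio was 0.582.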

How the results depend on the processing

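No paired analysis was possible because each group had 1 library. The spread between mice is unknown, intervals cover counting error, and depth limits Sp5, Axin2 in control T-like cells and every class under 100 cells. Of the class ratios, all 26 in T-like cells, 87 of 99 in tumour-like cells and 70 of 88 in fibroblast-like cells stayed within the interval of the value reported. The T-like count says little about stability, since intervals there were wide, from 1.36 to 313 for Axin2. Axin2 in T-like cells also had a ratio under only 6 alternatives, against 10 for Rnf43 and Znrf3. Of the ratios past 1.5-fold, 2 turned direction, Nkd1 in fibroblast-like cells, 1.23 at a clustering resolution of 0.5, and Lgr5 in fibroblast-like cells, 0.94 with subclusters weighted alike. At a resolution of 0.5 the fibroblast-like class held 402 control cells, in place of 621. Of the 11 ratios within 1.5-fold, 7 lay on the other side of 1 under at least 1 alternative. Farthest were Apcdd1 in fibroblast-like cells (1.08, and 0.479 without subclusters of under 20 cells in 1 library), Rspo1 in tumour-like cells (0.717, and 1.52 without the 5% highest doublet scores) and Axin2 with subclusters weighted alike (0.859 in fibroblast-like and 1.17 in tumour-like cells). Znrf3 in T-like cells reached 0.935, and Lgr4 reached 1.03 in tumour-like and 1.04 in fibroblast-like cells. Rnf43 in tumour-like cells ranged from 0.324 to 0.792 and Rspo3 in fibroblast-like cells from 1.72 to 6.07. Counts of genes past 1.5-fold moved as follows. In tumour-like cells the 1 higher gene was 0 at a minimum of 50 UMIs and without the Epcam-high subcluster, and 2 as a mean over cells, without the tenth of cells richest in other markers, and with subclusters weighted alike. The 2 lower were 1 at a 2-fold threshold and 0 with subclusters weighted alike. In fibroblast-like cells the 3 higher were 1 without subclusters of under 20 cells in 1 library and 1 with subclusters weighted alike. The 1 lower was 0 at 2-fold, at a resolution of 0.5 and with each cell classed by its own markers. In T-like cells the 1 lower was 0 at 2-fold and under the strict cell filter, and the 1 higher was 2 without the tenth of cells richest in other markers. The causes were not tested. Of the shares of cells with a UMI, 31 of 36 moved with the thinning depth. The motif with 1 more letter, A or T, had 2 matches in the Sp5 window and stood in 16.9% of all windows. The alternatives that leave out subclusters or the richest cell, and the weighting of fibroblast-like subclusters, were chosen after seeing the data.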
